A study of Mus musculus with 6 samples.

Results

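This account covers 10 transcription factor genes of the BATF, IRF and AP-1 group in mouse T cells grown toward the Th17 state, the helper T cell fate marked by secretion of IL-17A. The genes were taken by name, as a group chosen with earlier results of these data known: Batf, Batf3, Irf4, Irf8, Jun, Junb, Jund, Fos, Fosl1 and Fosl2. They are 10 of the 38483 genes in the deposited table and hold 21 of its 93480 transcripts. All 10 passed the filter on low counts in the test across 15121 genes.

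The knockout libraries (KO 1 to 3) came from IL-17A-/- mice and the wild-type libraries (WT 1 to 3) from IL-17A+/+ mice, all on the B10.RIII background. Spleen cells selected as CD4+CD62L+, the phenotype of naive helper T cells, were cultured for 3 days with 1 ng/ml of TGF-β. The medium also held 10 ng/ml of IL-23, 10 ng/ml of IL-6, and 10 µg/ml of each of 2 blocking antibodies, one to IL-4 and one to IFN-γ. Every library in both genotypes received these same agents. The sources used here do not give the age of the mice, nor how many mice stood behind each culture.

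AP-1 is a dimer of basic leucine zipper proteins, in which a Jun protein pairs with a Fos, BATF or ATF protein and grips DNA through its basic region. BATF with a Jun partner binds beside IRF4 or IRF8 at joint AP-1 and IRF elements, and BATF and IRF4 together open chromatin early in Th17 cells. JunB and Fra-2, the product of Fosl2, are also known from work in mouse Th17 cells, whereas c-Fos and c-Jun are best known as early products of receptor signalling.

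The basic region contacts DNA, and its coding sequence was compared base by base among the 8 leucine zipper members. The stretch of 48 bases below was found in each gene's most used transcript, read from GENCODE M21 on GRCm38, the build named for these files. Capitals mark the 12 positions that are identical in all 8 genes.
Jun, chr4:95050441-95050488, minus strand: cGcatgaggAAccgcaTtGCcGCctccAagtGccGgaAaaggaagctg
Junb, chr8:84977569-84977616, minus strand: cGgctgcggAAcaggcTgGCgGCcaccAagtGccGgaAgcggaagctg
Jund, chr8:70699862-70699909, plus strand: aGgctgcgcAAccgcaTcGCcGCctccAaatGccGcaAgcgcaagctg
Fos, chr12:85475628-85475675, plus strand: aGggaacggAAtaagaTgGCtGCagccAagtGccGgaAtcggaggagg
Fosl1, chr19:5454449-5454496, plus strand: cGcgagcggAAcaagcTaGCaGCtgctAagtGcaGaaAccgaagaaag
Fosl2, chr5:32150457-32150504, plus strand: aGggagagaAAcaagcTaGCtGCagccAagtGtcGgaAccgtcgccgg
Batf, chr12:85689301-85689348, plus strand: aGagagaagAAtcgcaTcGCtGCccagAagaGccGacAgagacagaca
Batf3, chr1:191100761-191100808, plus strand: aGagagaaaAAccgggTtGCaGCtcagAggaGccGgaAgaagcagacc
The Jun genes are single-exon genes here, and the stretch lies in exon 3 of the Fos genes and in exon 2 of the BATF genes. Identity over the stretch was 77.1% for each pair of Jun genes, 75.0% for Fos with Fosl2 and 72.9% for Batf with Batf3. Fosl1 was at 68.8% both with Fos and with Fosl2. Outside these families Junb and Fos were the most alike in bases, at 70.8%, which is above the values of Fosl1 within its own family. Codons for the same amino acid can differ in bases, so these values do not measure how alike the proteins are. Over whole transcripts the longest run of bases shared by any 2 of the 10 members was 20 nt, between Jun and Jund.

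The deleted gene matched the genotype labels. Il17a held 57, 0 and 1 estimated counts in KO 1, 2 and 3, against 7819, 9364 and 5161 in WT 1, 2 and 3. Library totals ran from 47335736 to 49743762 estimated counts, and values below are CPM, counts divided by library size with TMM factors, unless another scale is named. The T cell marker Cd3e was present throughout, at 163 to 222 CPM in KO and 187 to 214 CPM in WT libraries. Cd4, on which the cells were selected, was at 246, 634 and 379.6 CPM in KO 1, 2 and 3, against 523, 579.6 and 490.5 CPM in WT 1, 2 and 3. KO 1 was the lowest of the 6 in Cd4 and in Cd28, a costimulatory receptor gene, at 117 CPM against 166 to 274 CPM in the other 5. It was the highest of the 6 in Cd3e, at 222 CPM. The 8 T cell markers tested summed to 3204, 3598 and 2946 CPM in KO 1, 2 and 3. In WT 1, 2 and 3 they summed to 3748, 3384 and 2804 CPM. Cd8a, which cells selected as CD4+ should lack, reached 425 CPM in KO 1 and 257 CPM in WT 1, against 33.7 to 66.1 CPM in the other 4. The female-specific RNA Xist read 2.58, 0 and 627 CPM in KO 1, 2 and 3, against 567, 622 and 664 CPM in WT 1, 2 and 3. A pair below is the KO and WT library of one number, and sex and genotype cannot be told apart in pairs 1 and 2, whereas Xist was high in both libraries of pair 3. Libraries of the same number deviated from their genotype's mean together, so ratios within pairs are given beside the group values.

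Irf4 had the highest mean level per transcript length of the 10 genes and Fosl1 the lowest. Levels between genes are compared in TPM, computed here from the counts and the deposited transcript lengths. The means over the 6 libraries were 128 TPM for Irf4, 106 for Irf8, 90.9 for Batf, 77.9 for Batf3, 57.3 for Junb, 43.4 for Fosl2, 14.9 for Jun, 14.1 for Jund, 1.62 for Fos and 1.06 for Fosl1. By mean TPM, 5.34% of the genes tested lay above Irf4, 14.5% above Fosl2 and 73.4% above Fos. The upper gene of neighbours was higher in all 6 libraries for 3 of the 9 steps, Junb over Fosl2, Fosl2 over Jun and Jund over Fos. Batf was above Batf3, and Batf3 above Junb, in 5 of 6 libraries. Irf4 was above Irf8 in 4 of 6, Irf8 above Batf in 3, Jun above Jund in 4 and Fos above Fosl1 in 4. Of the 9 steps between neighbours, the lowest library of the upper gene stood above the highest library of the lower gene in 2, from Fosl2 down to Jun and from Jund down to Fos. The Fosl2 to Jun step was 2.91-fold and the Jund to Fos step 8.68-fold by means. The place of Irf8 rests partly on Irf8-004, a short transcript discussed with the transcripts: counted from Irf8-001 alone, its mean was 73.4 TPM, below that of Batf3.

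**Figure D1:**
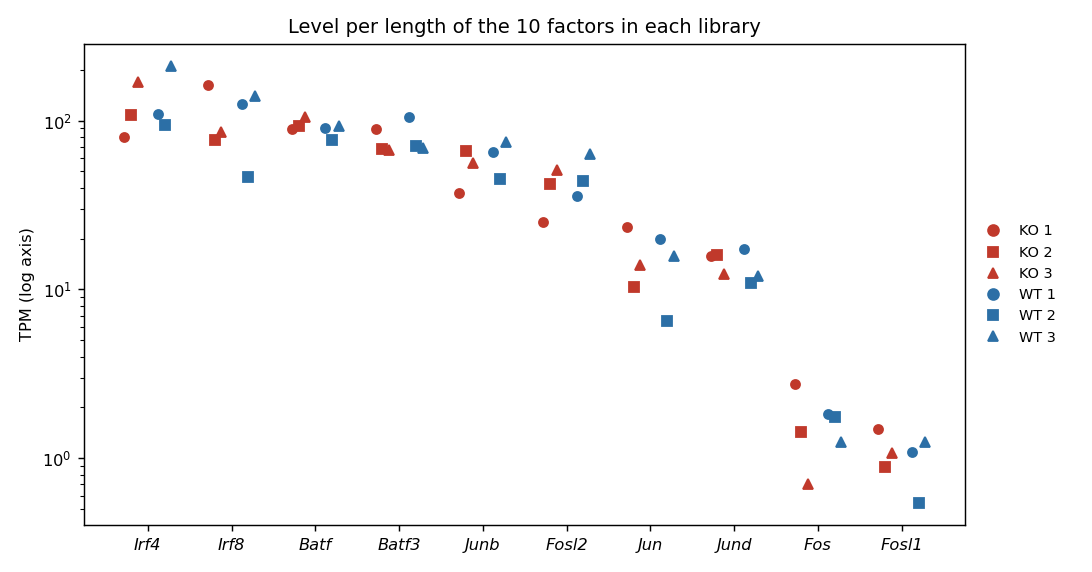
Level of each factor in TPM (vertical log axis) in the 3 KO libraries (red) and 3 WT libraries (blue), with a marker shape for each replicate number and genes in order of mean TPM. The 2 gaps between neighbours that no library crosses lie after Fosl2 and after Jund; KO and WT points mix in every column.

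For none of the 10 factors did the difference between knockout and wild-type libraries pass the test against the spread between libraries. edgeR's quasi-likelihood test called 0 of 10 members at an adjusted p under 0.05, with 0 of 10 at an unadjusted p under 0.05. It called 0 of all 15121 genes (0%), of which 1.67% had an unadjusted p under 0.05. The deleted Il17a was not called either, at a log2 change of -8.70 (unadjusted p 2.99e-04, adjusted p 0.9999). A result of 0 calls in this edgeR fit therefore cannot show that the members were unchanged. Without the block, DESeq2 also called 0 of 10 (0.086% of all genes, 2.44% at an unadjusted p under 0.05, where 0 of the 10 lay). For limma-voom these were 0 of 10 members (0% and 1.83% of all genes). With the replicate number as a block, DESeq2 called 0 of 10 members against 2.47% of all genes, and edgeR and limma-voom called 0 of 10 (0% of all genes in each). In these blocked fits, unadjusted p-values under 0.05 were found for Fosl2 in edgeR and limma-voom (9.73% and 10.9% of all genes) and for Irf4 and Fosl2 in DESeq2 (10.6%). The CPM ranges of the genotypes overlapped for all 10, whereas they did not overlap for 6.14% of the genes tested. Median log2 changes, knockout minus wild-type, were 0.07 over the members and 0.01 over all genes tested. With 3 libraries a genotype the 95% intervals are wide: for 4 of the 10, Batf, Batf3, Junb and Jund, they stayed within a 2-fold change either way, and for the other 6 they did not.

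**Figure D2:**
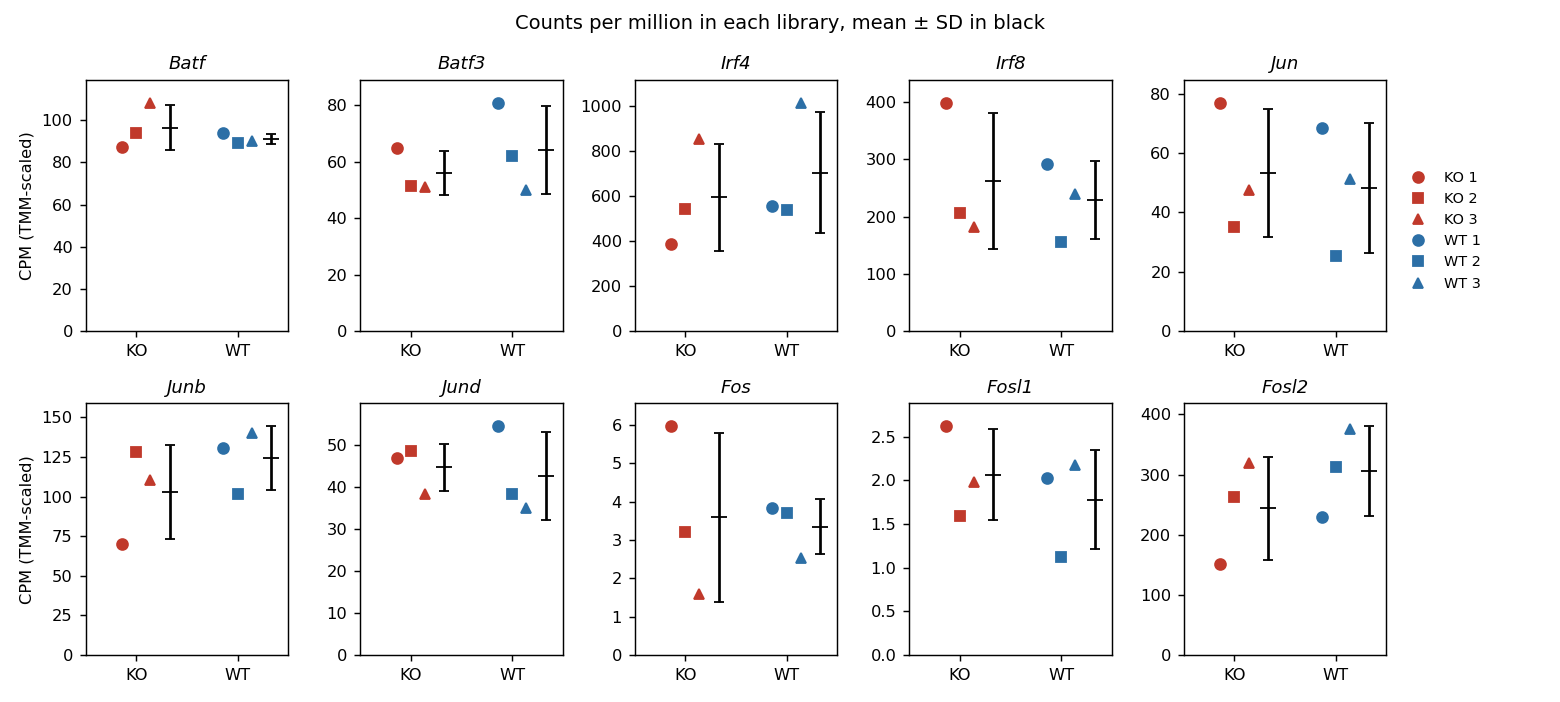
CPM (vertical axes, from 0) of the 10 factors in KO libraries (red, left) and WT libraries (blue, right), one marker shape per replicate number, with mean ± SD (n = 3) in black. In every panel the 2 genotypes overlap; Irf4 is highest in the number 3 libraries of both genotypes and Jun in the number 1 libraries of both.

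Batf (ENSMUSG00000034266, chromosome 12, 85686669 to 85709087), which encodes the pioneer partner of Jun proteins that Th17 differentiation in mice requires, was the steadiest of the group. It was at 87.3, 93.7 and 108 CPM in KO 1, 2 and 3, against 93.8, 89.2 and 90.1 CPM in WT 1, 2 and 3. It averaged 96.4 ± 10.8 CPM over the KO and 91.0 ± 2.48 CPM over the WT libraries (SD, n = 3 each). The log2 change was 0.08 (SE 0.13), with a 95% interval of -0.23 to 0.40. Its whole spread over the 6 libraries was 0.31 on the log2 scale, against a median of 0.74 over all genes tested; 7 of the 10 members were wider than that median.

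Batf3 (ENSMUSG00000026630, chromosome 1, 191098414 to 191108943), best known for the cross-presenting dendritic cells that need it, was at 64.8, 51.5 and 51.1 CPM in KO libraries and 80.9, 61.9 and 49.9 CPM in WT libraries. The number 1 library was the highest of each genotype. The log2 change was -0.20 (SE 0.21), with an interval of -0.69 to 0.29. Of 9 dendritic cell markers, the 6 that passed the filter on low counts summed to 97.8 to 133 CPM in KO and 104 to 120.5 CPM in WT libraries. Of the other 3, Siglech and Cd209a were at 0 CPM in all 6 libraries and Clec9a was at 0.226 CPM or less. The part of such cells in the Batf3 level was not tested. Without WT 1 the Batf3 log2 change was -9.16e-04, and without WT 3 it was -0.37.

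Irf4 (ENSMUSG00000021356, chromosome 13, 30749226 to 30766927), the factor that works with BATF at joint elements, was highest in the number 3 library of both genotypes. It was at 386, 542 and 853 CPM in KO 1, 2 and 3, against 558, 540.0 and 1015 CPM in WT 1, 2 and 3. Both number 3 libraries stood above the other 4, and the groups overlapped. The log2 change was -0.25 (SE 0.36), with an interval of -1.10 to 0.61. Within pairs the log2 ratios were -0.53, 0.0046 and -0.25. With the block, DESeq2 gave -0.27 (SE 0.14, adjusted p 0.458).

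Irf8 (ENSMUSG00000041515, chromosome 8, 120736358 to 120756694), a relative of Irf4 that is prominent in B cells, dendritic cells and macrophages and is induced in activated T cells, was at 399, 207 and 181 CPM in KO libraries. Wild-type libraries held 292, 156 and 238 CPM. The groups overlapped, and the log2 change was 0.19 (SE 0.36), with an interval of -0.65 to 1.04. Pairs 1 and 2 were higher in the knockout, with log2 ratios of 0.45 and 0.40, and pair 3 was lower, at -0.40. Without KO 1 the log2 change was -0.25.

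Marker genes of other cell types varied across these libraries too. All 12 B cell markers had positive log2 changes, and their summed level was 519 to 1482 CPM in KO and 343 to 786 CPM in WT libraries, highest in the number 1 library of each genotype. Their median log2 ratios within pairs 1, 2 and 3 were 0.98, 1.29 and 0.053, so the typical marker hardly differed in pair 3. With the block, DESeq2 called Ms4a1, Cd22, Blk and Igkc higher in the knockout (1.01% of all genes were called higher). Myeloid markers, 10 of 12 tested, summed to 126 to 403 CPM in KO and 81.6 to 263 CPM in WT libraries, and Itgam, Mpeg1, Ctss and Clec7a were called higher in that fit. CD8 T cell markers summed to 148 to 804 CPM in KO and 89.5 to 512 CPM in WT libraries, with 2 of 5 called higher, Cd8a and Klrc1. Of the marker genes named as called here, Igkc and Blk also passed without any 1 pair. Ctss and Clec7a lost the call whichever pair was left out, with adjusted p of 0.189 to 1.00 for Ctss and 0.283 to 0.820 for Clec7a in DESeq2 with the block. The call was lost without pair 1 for Mpeg1 (0.449), and without pair 1 or 2 for Ms4a1 (0.269 and 0.457) and Cd22 (0.590 and 0.424). It was lost without pair 2 or 3 for Itgam (0.631 and 0.658), without pair 1 or 3 for Cd8a (0.0856 and 0.273) and without pair 3 for Klrc1 (0.0785). T cell and dendritic cell markers had 0 called in either fit, of 8 and 6 tested, and their smallest p-values were for Zap70 and Xcr1. In bulk RNA, fewer cells of a type and less RNA per cell cannot be told apart, and the part of these cells in the Irf8 level was not tested.

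**Figure D3:**
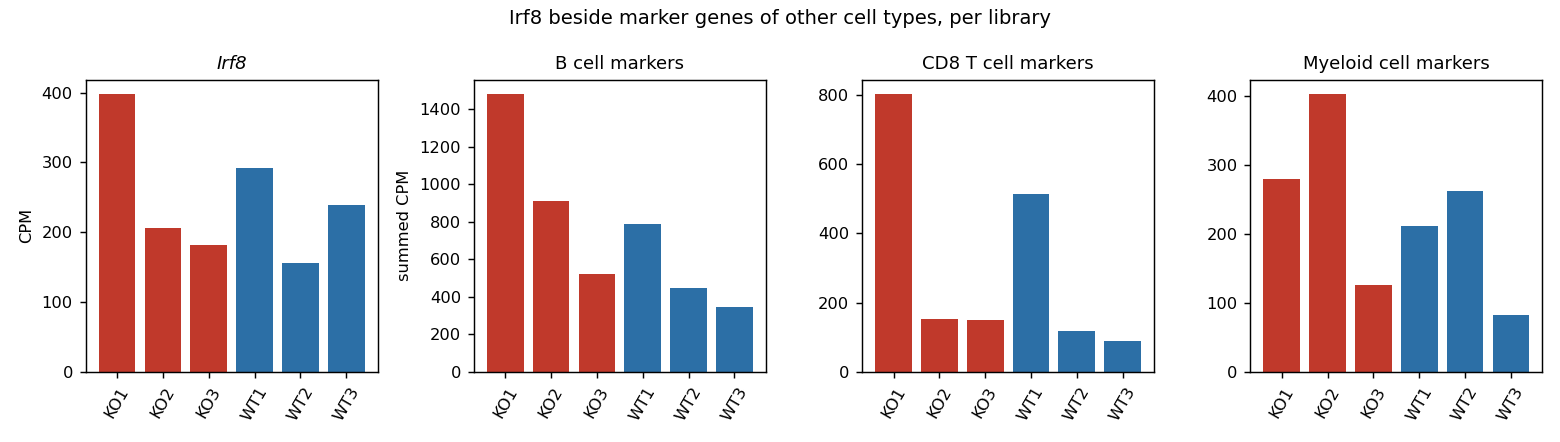
Irf8 in CPM (first panel) and the summed CPM of B cell, CD8 T cell and myeloid marker genes (other panels) in each library, KO red and WT blue. Irf8, B cell and CD8 markers are highest in KO 1; myeloid markers are highest in KO 2.

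Junb was the main Jun family gene and Jun the most variable one. Junb (ENSMUSG00000052837, chromosome 8, 84976909 to 84978748), a BATF partner in Th17 cells of mice, was at 70.2, 128 and 111 CPM in KO 1, 2 and 3, against 131, 102 and 140.3 CPM in WT 1, 2 and 3. KO 1 was the lowest of the 6, and its pair had a log2 ratio of -0.89, against 0.33 in pair 2 and -0.34 in pair 3. The log2 change was -0.27 (SE 0.25), with an interval of -0.86 to 0.31. In DESeq2 with the block and without pair 2, the pair that went the other way, Junb reached an adjusted p of 0.0463 with a log2 change of -0.64, and without pair 1 the change was 4.47e-04. Those fits called 1.16%, 1.73% and 0.955% of all genes without pair 1, 2 or 3, and leave 1 residual degree of freedom.

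Jun (ENSMUSG00000052684, chromosome 4, 95049034 to 95052222), which encodes c-Jun, was at 77.0, 35.1 and 47.5 CPM in KO and 68.5, 25.2 and 51.1 CPM in WT libraries. In both genotypes number 1 was highest and number 2 lowest. The log2 change was 0.14 (SE 0.42). Jund (ENSMUSG00000071076, chromosome 8, 70697739 to 70700616), the Jun gene that many tissues express at a constant level, was at 46.9, 48.6 and 38.3 CPM in KO and 54.4, 38.3 and 35.1 CPM in WT libraries. Its log2 change was 0.07 (SE 0.20), with an interval of -0.41 to 0.54.

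Fosl2 (ENSMUSG00000029135, chromosome 5, 32136472 to 32157831), which encodes Fra-2, was the one member lower in the knockout library of all 3 pairs, as were 16.7% of all genes tested. No member was higher in all 3, as were 16.6% of genes. It was at 151, 263 and 319 CPM in KO 1, 2 and 3, against 229, 313 and 377 CPM in WT 1, 2 and 3. In both genotypes number 1 was lowest and number 3 highest, and the groups overlapped. Pairs 1, 2 and 3 had log2 ratios of -0.60, -0.25 and -0.24. Fosl2 averaged 244 ± 85.6 CPM over the KO and 306 ± 74.2 CPM over the WT libraries (SD, n = 3 each), which gave a log2 change of -0.33 (SE 0.31) with an interval of -1.06 to 0.40. With the block the change was -0.36 (SE 0.12, adjusted p 0.449) in edgeR and -0.38 (SE 0.12, adjusted p 0.0850) in DESeq2, so it did not pass. Without pair 1 the blocked DESeq2 change was -0.24 (SE 0.15). In edgeR without the block, leaving out KO 1 gave -0.087, WT 3 -0.16, WT 1 -0.49 and KO 3 -0.59.

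Fos and Fosl1 were scarce. Fos (ENSMUSG00000021250, chromosome 12, 85473890 to 85477273), which encodes c-Fos, was at 5.96, 3.21 and 1.60 CPM in KO and 3.82, 3.70 and 2.53 CPM in WT libraries, from at most 305 counts in a library. KO 1 was the highest and KO 3 the lowest of all 6, and the log2 change of 0.10 (SE 0.50) turned to -0.066 in edgeR with the block. Fosl1 (ENSMUSG00000024912, chromosome 19, 5447703 to 5455945), which encodes Fra-1, was at 2.62, 1.60 and 1.98 CPM in KO and 2.03, 1.13 and 2.17 CPM in WT libraries. Its log2 change was 0.22 (SE 0.41), with an interval of -0.76 to 1.19.

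**Figure D4:**
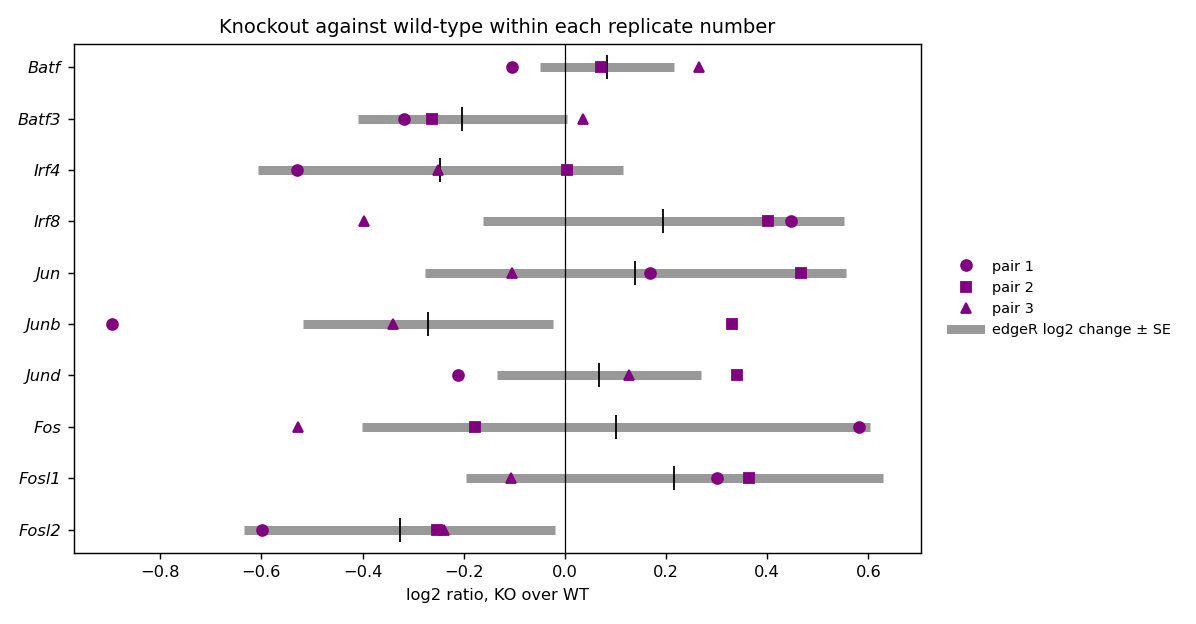
Log2 ratio of KO over WT within pairs 1, 2 and 3 (purple markers) for each factor, with edgeR's log2 change (black tick) ± SE (grey bar). Fosl2 is the one row with all 3 pairs below 0; Junb spreads between -0.89 in pair 1 and 0.33 in pair 2.

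With 3 libraries a genotype the tests of family shares could not reach a p under 0.05, so they decide nothing between genotypes. KO 1 had the lowest Junb, Fosl2 and Irf4 shares of the 6 libraries. Junb made up 48.5%, 71.4% and 68.1% of the summed TPM of Jun, Junb and Jund in KO 1, 2 and 3, against 63.7%, 72.3% and 73.0% in WT 1, 2 and 3. The mean difference was -7.01 percentage points (two-sided exact permutation test, p = 0.5, n = 3 each). The Junb share was lower in the knockout in all 3 pairs, with differences of -15.2, -0.89 and -4.91 points. Jun made up 30.7% of the family in KO 1 and 10.3% to 19.3% in the other 5 libraries. Fosl2 made up 84.7%, 94.4% and 96.4% of the Fos family, counted with Fosb, in KO and 92.1%, 94.7% and 95.9% in WT libraries (exact permutation p = 0.8). Batf made up 50.1%, 57.6% and 61.2% of the Batf and Batf3 sum in KO and 46.4%, 51.8% and 57.4% in WT libraries, a mean difference of 4.44 points (exact permutation p = 0.4), which was 1.71 without WT 1 and 7.54 without KO 1. The shares of Batf, Jun and Fosl1 were higher in the knockout in all 3 pairs. For these 3 and for Junb the exact sign-flip p within pairs was 0.25, the smallest that 3 pairs allow. Irf4 made up 32.8%, 58.5% and 66.5% of the Irf4 and Irf8 sum in KO and 46.6%, 66.8% and 60.1% in WT libraries (exact permutation p = 0.6). These shares depend on the transcripts counted. From the most used transcript of each gene, Irf4-001 and Irf8-001, they were 25.3%, 44.4% and 63.9% in KO 1, 2 and 3. In WT 1, 2 and 3 they were then 41.0%, 55.4% and 63.6%. Over the 9 shares tested the exact permutation p ran from 0.4 to 0.9. The smallest possible is 0.1, so none could come under 0.05 even before adjustment for the 9 tests.

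**Figure D5:**
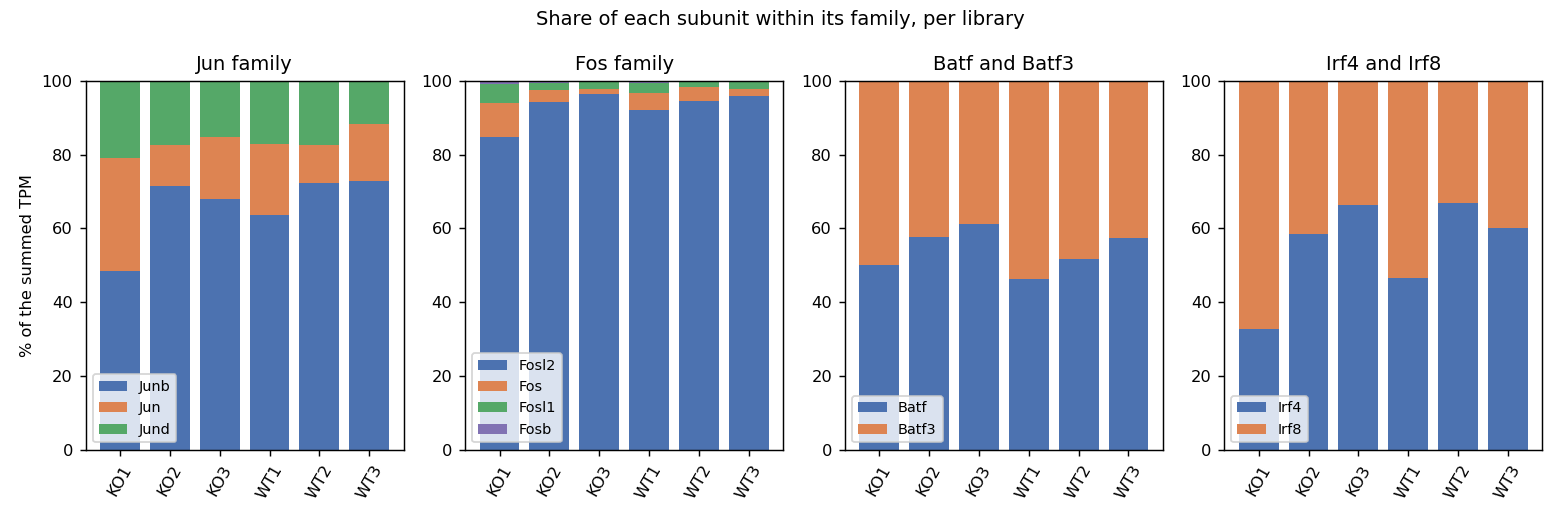
Share of each gene in the summed TPM of its family (vertical axis, percent) in each library, KO left of WT. Junb and Fosl2 take most of their families in nearly every bar, with the lowest shares, 48.5% and 84.7%, in KO 1.

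Per transcript, edgeR called 0 of the 15 member transcripts tested and 0 of 36508 transcripts in all (0%, with 1.73% at an unadjusted p under 0.05). With the block DESeq2 called 0 of the 15, against 1.13% of all transcripts. Batf, Batf3, Junb, Jund, Fosl1 and Fosl2 have a single transcript each in the table. Irf4 is divided between Irf4-001 (4715 nt) and Irf4-002 (4712 nt), which differ by 3 nt where exon 5 joins exon 4. The joined ends of these exons, chr13:30752753-30753471 on the plus strand of GRCm38, read as follows, with the extra bases of Irf4-001 in capitals.
Irf4-001: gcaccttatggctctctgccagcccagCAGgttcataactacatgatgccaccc
Irf4-002: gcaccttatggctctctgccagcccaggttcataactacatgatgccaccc
Since the bases before the extra triplet are the same triplet, its place is not unique, and only reads over this junction separate the transcripts. Irf4-001 held 54.6%, 48.6% and 54.6% of the Irf4 counts in KO and 54.5%, 58.4% and 54.2% in WT libraries. KO 2 was the one library in which Irf4-002 held more. The log2 changes were -0.30 (SE 0.37) for Irf4-001 and -0.15 (SE 0.39) for Irf4-002.

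Irf8 counts came mostly from Irf8-001 (2847 nt), at 94.1%, 96.2% and 87.7% in KO and 90.5%, 98.0% and 79.8% in WT libraries. A short coding transcript, Irf8-004 (597 nt), was estimated at 763, 185 and 969 counts in KO libraries and at 1050.0, 0.0620 and 1929 counts in WT libraries. Its jumps between replicates exceed those of Irf8-001, and the edgeR log2 change was -0.68 (SE 1.67). Because TPM divides by length, this transcript weighs heavily in the Irf8 TPM of WT 3, which was 140.1 TPM in all and 65.4 TPM from Irf8-001. Jun-001 held at least 99.6% of the Jun counts in every library. Of the Fos counts, Fos-004, a processed transcript (795 nt), held 0 in KO 1, 2 and 3. In WT 1, 2 and 3 it held 10.5, 15.8 and 4.64 estimated counts, too few to pass the filter. A count of 0 allows up to 3 counts in a library by counting error alone. That bound does not cover error in dividing reads among the overlapping Fos transcripts.

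Among the genes that feed AP-1, Mapk9, which encodes the Jun kinase JNK2, was lower in all knockout libraries. Mapk9 (chromosome 11, 49846751 to 49886421) was at 74.1, 91.5 and 84.0 CPM in KO 1, 2 and 3, against 99.1, 131 and 109 CPM in WT 1, 2 and 3. The ranges did not overlap, with the knockout lower, as for 3.13% of all genes tested. Within-pair log2 ratios were -0.42, -0.51 and -0.38. Mapk9 fell by 0.45 on the log2 scale in DESeq2 with the block (SE 0.11, adjusted p 0.00366), but did not pass in edgeR without the block (-0.44, SE 0.16, unadjusted p 0.0268, adjusted p 0.9999) or with it (adjusted p 0.366). The call rested on all 3 pairs: without pair 1, 2 or 3 the blocked DESeq2 change was -0.44, -0.42 or -0.48, with adjusted p of 0.278, 0.176 and 0.516. Mapk9 was the one called in DESeq2 with the block among 24 MAP kinase cascade genes and AP-1 regulators, whose median log2 change was -0.02. That fit on all 3 pairs called 2.47% of all genes, 1.46% lower in the knockout. Mapk8, which encodes JNK1, was at 17.0 ± 5.63 CPM over KO and 15.3 ± 4.87 CPM over WT libraries, with a log2 change of 0.15 (SE 0.32).

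A list of 13 other basic leucine zipper genes tested held AP-1 and BATF subunits and also relatives outside these families, Nfe2l2, Bach1 and Bach2. Of these 13, edgeR and DESeq2 with the block each called 0 in either direction, and their median log2 change was -0.05. The smallest edgeR p of that list was for Nfe2l2, which encodes the stress-response factor NRF2, at 38.0 ± 1.90 CPM in KO and 43.2 ± 0.675 CPM in WT libraries, an unadjusted p of 0.146. Of 10 other genes named for IRFs, both fits called 0 (median -0.03). That list also held Irf2bp1, Irf2bp2 and Irf2bpl, which are named for binding IRF2 and are not IRF family genes themselves.

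Of the genes that BATF and IRF4 bind or sustain in Th17 cells, 20 were tested, and edgeR called 0. DESeq2 with the block called 3 of the 20, against 2.47% of all genes. Of these, 2 were higher and 1 lower in the knockout (1.01% and 1.46% of all genes), and the lower one was the deleted Il17a. Those called higher were Il17f, the neighbour and closest relative of Il17a (log2 change 1.43, SE 0.44, adjusted p 0.0449), and Ccl20, a chemokine gene (1.08, SE 0.29, adjusted p 0.0128). Il17f was at 1285, 433 and 1036 CPM in KO libraries, all above the 376, 301 and 260 CPM of the wild-type libraries. Without pair 1 the Il17f adjusted p in that fit was 0.871, and without pair 2 or 3 it was 1.35e-39 or 0.00245. DESeq2 without the block also called Il17f (adjusted p 0.0481). The blocked adjusted p of Ccl20 was 0.0269 without pair 1, and 0.266 or 1.00 without pair 2 or 3. Fits without a pair leave 1 residual degree of freedom. The median log2 change of the list was -0.05. Of 18 immediate early genes, which share with Fos a fast response to signals, DESeq2 with the block called 1, Egr3, higher in the knockout (1.51, SE 0.46, adjusted p 0.0445, and 0.594, 0.507 or 0.270 without pair 1, 2 or 3). The median of that list was -0.02. The number at an unadjusted p under 0.05 in edgeR was 1 of the 18, against 1.67% of all genes. It was Zfp36, an RNA decay factor gene, at 85.6 ± 11.4 CPM in KO and 118 ± 16.4 CPM in WT libraries. Zfp36 was not called, with an adjusted p of 0.9999 in edgeR and 0.0992 in DESeq2 with the block.

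The 3 members with the widest spread over the 6 libraries were Fos, Jun and Irf4, at 1.62, 1.59 and 1.39 on the log2 scale. Profiles were compared as the root mean square difference of centred log2(CPM + 0.5) over the 6 libraries, among genes with a mean of 5 CPM or more. The profiles most like Irf4 were those of Klf7, Asxl2 and Tnfrsf8, at 0.0488, 0.0506 and 0.0523. Tnfrsf8, which encodes CD30, was at 79.5, 117 and 197 CPM in KO and 118, 121 and 220.1 CPM in WT libraries, again highest in the number 3 libraries. The profiles most like Jun were those of Arap2, Efcab4b and Nle1, at 0.129 to 0.152. Those most like Fos were Nfkbiz, Il10ra and Ifnar1, at 0.104 to 0.153; Nfkbiz was highest in KO 1 and lowest in KO 3, as Fos was.

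The promoters of 9 of the 10 members, 10 windows in all, were present in the RefSeq table for GRCm38.p6. In the 250 bases before the start, on both strands, TGANTCA, the AP-1 site, was found in 0 of the 10 windows and in 6.75% of 32851 windows of all genes. TGANNTCA, the related cyclic AMP response-like site, was found in 2 of 10, in Jun and Jund, and in 11.9% of all. The IRF site, searched as a pair of GAAA with 2 bases between them, was found in 1 of 10, in Fosl2, and in 2.98% of all. The stretches that hold these letters are shown, with the match in capitals, because they are the AP-1-like and IRF-like letters within the members' own promoters.
Jun, chr4:95052248-95052279, minus strand: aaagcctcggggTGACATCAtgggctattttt
Jund, chr8:70697666-70697697, plus strand: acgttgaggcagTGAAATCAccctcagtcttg
Fosl2, chr5:32136239-32136272, plus strand: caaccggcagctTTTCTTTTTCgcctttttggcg
The matches begin 45, 61 and 221 bases before the start of Jun, Jund and Fosl2, and the Fosl2 match reads on the reverse strand. A match is a description of these letters alone, and no binding was measured in these samples.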

How the data were processed

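Stranded mRNA libraries of 6 cultures were sequenced, per the labels' protocols. For 93480 transcripts the deposited table holds an estimated count per library, per the file headers. The submitters' processing notes name GRCm38, Bowtie2 2.1.0 and eXpress 1.3.1, and the annotation release is not given in the sources used here. The deposited GC content, a fraction, entered no test, and the deposited lengths served for TPM.

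Estimated counts were summed over each gene's transcripts and rounded. Totals were 47335736 to 49743762 per library, so a count of 0 allows up to 3 counts, which covers counting error only. All library pairs differed by more than sampling noise (chi-square over degrees of freedom 55.8 to 273). The labels call the samples biological replicates without naming the animals behind them, so p-values measure the spread between these samples. Where 2 gene IDs share a symbol, the ID with more counts was used. For 2 list symbols, Adgre1 and Spi1, no row matched.

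Genotypes were compared by the quasi-likelihood test of edgeR 4.0.16 (TMM, filterByExpr, no block, Benjamini-Hochberg over all 15121 genes, threshold 0.05), run in R 4.3.3 and tested on simulated data. DESeq2 1.42.0 and limma-voom (limma 3.58.1) were alternatives, each also with the replicate number as a block. Intervals are edgeR's log2 change ± the 95% t quantile times SE. In DESeq2 with the block 294 genes had no adjusted p and were not counted as called. Same-number libraries deviated from their genotype's mean together across genes, with correlations of 0.60, 0.45 and 0.64, so libraries of one number were treated as pairs. Other pairings were at -0.47 to -0.17. Deviations from a shared mean balance out, which pushes these other values down, so they are no separate support for the pairing. Shares were tested by exact permutation. Ratios within pairs used CPM + 0.5. Shares, profiles and plots used scipy 1.17.1, matplotlib 3.10.9, pandas 2.3.3 and numpy 2.4.6 under Python 3.11.15.

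The members and the 10 other lists were chosen with earlier results of these data known. Named from each list were genes called by edgeR or by DESeq2 with the block, or else the one with the smallest edgeR p; some genes this rule names are not reported here. Profiles were compared for the 3 members with the widest range, and transcripts with 5% or more of a gene's counts were named. Fos-004, with a lower mean share, was named after its values were seen, as were Mapk8, Cd3e, Cd4, Cd28, Xist, Siglech, Cd209a and Clec9a.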

Additional observations from a re-analysis of the deposited data

How the results depend on the processing

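Over 18 alternative settings per member, the 10 members gave no call but 1, Junb. Batf3 and Fosl2 kept their sign in all 18, though not their size. Without pair 1, 2 or 3, DESeq2 with the replicate block called 0, 1 and 0 members, 177, 264 and 147 genes and 7, 11 and 12 of the list genes. On all 3 pairs it called 374 genes and 16 list genes, and 411 transcripts. DESeq2 without the block called 13 genes, 3 of them on the lists. Leaving out 1 library in edgeR gave 0 to 1 called genes, the list gene Il17a, without KO 1, and 0 members. In those fits log2 changes ran from -0.032 to 0.14 for Batf, -0.37 to -9.16e-04 for Batf3, -0.63 to 0.10 for Irf4, -0.25 to 0.41 for Irf8, -0.24 to 0.48 for Jun, -0.48 to -0.07 for Junb, -0.067 to 0.28 for Jund, -0.49 to 0.43 for Fos, -0.026 to 0.37 for Fosl1 and -0.59 to -0.087 for Fosl2. Other values that turned sign were Batf at -0.027 without pair 3, Junb at 4.47e-04 without pair 1 and Jund at -0.064 without pair 2, all with the block in DESeq2. Fos turned to -0.064 in limma-voom, to -0.066 in edgeR and -0.075 in DESeq2 with the block, and to -0.42 and -0.016 in blocked DESeq2 without pair 1 or 2. With both number 1 libraries left out of edgeR, a setting chosen after seeing the data, Irf8 was at -0.025 and Fos at -0.37. The cause was not tested. Leaving out 1 library moved the share differences to between -0.93 and 8.80 points for Jun, -11.4 and 0.0670 for Junb, 0.55 and 3.70 for Jund, -1.20 and 2.78 for Fos, -0.0648 and 0.308 for Fosb, 0.056 and 1.60 for Fosl1, -4.64 and 1.21 for Fosl2, 1.71 and 7.54 for Batf and -12.2 and 4.66 for Irf4; the turned values came without KO 1. Fos and Fosl1, at a few CPM, have the least depth.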
